A study of Mus musculus with 36 samples.

Results

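The genes of the proteasome and of its regulators were followed in the mouse heart by their symbols, which had to begin with Psma, Psmb, Psmc, Psmd, Psme, Psmf or Psmg followed by a digit, with annotated pseudogene copies left out. The rule found 49 genes among the 23352 entries of the deposited tables, and all 49 matched a protein-coding gene of the GENCODE M21 annotation. RNA came from the heart apex of cK15 mice, labelled as knockout for Klf15, which encodes a transcription factor of the Kruppel-like family, and from control mice with the alpha-MHC cre transgene, whose promoter is active in heart muscle cells. Per the labels, all were C57BL/6 (C57BL/6J in the protocol) males aged 11 to 12 weeks under 12 h of light and 12 h of dark, and the sources used here do not say how the knockout was made or whether cK15 mice also carry the transgene. There were 18 cK15 and 18 control libraries, 3 of each at every 4 h from 12 am to 8 pm. The labels do not tie libraries to animals, and p-values therefore measure a spread between libraries that may be technical. In bulk tissue, fewer cells of a type and less RNA per cell cannot be told apart.

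The proteasome degrades proteins that have been tagged with ubiquitin. Its core particle is a barrel of stacked alpha and beta rings with the proteolytic sites inside, and a regulatory particle of ATPase and non-ATPase subunits binds ubiquitinated proteins, removes the ubiquitin, unfolds the protein and feeds it into the barrel. In the immunoproteasome, which interferon induces and which cells of the immune system hold constitutively, Psmb8, Psmb9 and Psmb10 take the places of the catalytic subunits Psmb5, Psmb6 and Psmb7, and the cut peptides serve antigen presentation. Heart muscle relies on the proteasome to turn over sarcomere and other proteins, and its cells also hold core particles capped by other activators, among them the PA28 rings of Psme1 with Psme2 or of Psme3 alone and the single-chain Psme4.

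Promoters are shown for 5 genes chosen by name. Of these, Psmb8, Psmb9 and Psmb10 had lower means and Psme1 and Psme3 higher means in cK15 hearts at all 6 times. In all, 14 of the tested proteasome genes kept the same sign at all 6 times, so this does not single out the 5. The sequences are RefSeq's for build GRCm38.p6, 300 bases each, 5′ to 3′ on the gene's strand. Each runs from 250 bases upstream to 50 downstream of a RefSeq start. For Psmb8, Psmb9 and Psme1 the gene as annotated by GENCODE begins upstream of the whole window, so that other start is not covered. Capitals mark matches on either strand to the core of an interferon-stimulated response element (GAAA and again GAAA, with 2 bases between), CCAAT (bound by NF-Y), CACGTG (the E-box of clock factors) and CACCC (bound by Kruppel-like factors).
Psmb8, chr17:34197945-34198244 on the plus strand: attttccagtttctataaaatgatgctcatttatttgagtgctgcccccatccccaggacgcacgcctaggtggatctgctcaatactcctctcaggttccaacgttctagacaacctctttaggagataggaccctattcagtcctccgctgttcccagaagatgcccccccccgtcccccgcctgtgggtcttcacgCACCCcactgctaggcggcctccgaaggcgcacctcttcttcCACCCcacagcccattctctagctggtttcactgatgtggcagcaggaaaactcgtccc
Psmb9, chr17:34187281-34187580 on the minus strand: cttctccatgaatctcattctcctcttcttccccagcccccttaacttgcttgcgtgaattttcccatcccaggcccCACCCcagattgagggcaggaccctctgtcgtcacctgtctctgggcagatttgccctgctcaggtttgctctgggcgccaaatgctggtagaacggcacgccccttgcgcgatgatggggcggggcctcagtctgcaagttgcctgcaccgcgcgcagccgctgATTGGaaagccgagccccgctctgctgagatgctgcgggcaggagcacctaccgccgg
Psmb10, chr8:105938343-105938642 on the minus strand: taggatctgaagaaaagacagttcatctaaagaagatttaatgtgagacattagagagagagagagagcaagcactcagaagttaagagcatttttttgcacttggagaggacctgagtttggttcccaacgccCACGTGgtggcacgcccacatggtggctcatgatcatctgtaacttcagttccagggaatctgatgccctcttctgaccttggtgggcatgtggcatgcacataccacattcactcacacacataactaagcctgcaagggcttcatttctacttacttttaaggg
Psme1, chr14:55578244-55578543 on the plus strand: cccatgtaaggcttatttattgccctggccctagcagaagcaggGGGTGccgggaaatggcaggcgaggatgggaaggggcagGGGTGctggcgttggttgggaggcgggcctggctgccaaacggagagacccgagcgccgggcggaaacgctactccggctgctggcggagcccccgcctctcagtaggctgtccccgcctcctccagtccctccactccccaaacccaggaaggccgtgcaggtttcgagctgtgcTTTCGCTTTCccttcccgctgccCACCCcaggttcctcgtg
Psme3, chr11:101315963-101316262 on the plus strand: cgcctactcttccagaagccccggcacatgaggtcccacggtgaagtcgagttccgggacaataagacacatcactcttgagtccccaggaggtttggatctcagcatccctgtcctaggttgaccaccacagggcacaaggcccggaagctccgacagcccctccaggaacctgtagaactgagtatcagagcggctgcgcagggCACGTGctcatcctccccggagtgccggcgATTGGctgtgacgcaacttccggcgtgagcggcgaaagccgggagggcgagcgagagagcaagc

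RefSeq promoters were found for 41 of the 49 genes. Of the 5 shown, Psme1 held the interferon element, just downstream of its RefSeq start, and so did 5 of the 41 genes, Psme1 among them, against 3.49% of all 27025 promoters. The E-box stood in Psmb10 and Psme3 and in 4 of the 41, against 7.24% of all. CCAAT stood in Psmb9 and Psme3 and in 15 of the 41, against 37.9% of all, and CACCC in Psmb8, Psmb9 and Psme1 and in 17 of the 41, against 56.7% of all. TGACNNNGC, the antioxidant response element read by Nfe2l factors, stood in 6 of the 41, none of them among the 5, against 12.5% of all. A match is a description of these letters, on both strands and in this window only.

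The deposited values are FPKM, in which a fragment count is divided by gene length and library size, so levels can be set side by side between genes. Klf15 itself was listed at 0 in 13 of the 18 cK15 libraries and reached at most 0.326 FPKM there, against 0.406 to 2.91 FPKM in control libraries. In 12 libraries, 1 from each of the 12 groups, only 16.1% to 17.7% of all FPKM fell on the 10 leading genes, against 21.7% to 25.03% in the other 24. These 12 libraries, called the low-share libraries here, are cK15 replicate 1 and control replicate 2 at every time but 8 pm, where they are replicate 4 of both genotypes. Myl2, a myosin light chain of the ventricle with the highest mean of all genes tested, was lower in them (29700 to 35773 FPKM, against 43872 to 71845 FPKM in the other 24). As a leading gene it enters the share that defines these libraries, so this is no separate trait. As the low-share libraries are balanced over the groups, a difference of theirs that is equal in both genotypes does not shift a genotype difference. It does widen the spread of some genes. A difference that is unequal between genotypes can shift it. In the other 24 libraries the low values shared steps whose ratios put the depths within 1.63-fold of each other, while no such step was found for the 12. The absolute depth is unknown, so no counting interval is given.

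Most proteasome genes were abundant in the heart and differed little between genotypes. Of the 49, 47 had a mean of at least 1 FPKM and were tested with the 10599 genes above that level (limma on log2(FPKM + 1), with Benjamini-Hochberg adjustment over all genes tested). Averaged over the 6 times, 2 of the 47 passed an adjusted p of 0.05, Psme3 higher and Psmb10 lower in cK15 hearts, which is 4.26%, against 11.2% of all genes tested (4.06% higher and 7.18% lower). The log2 fold change of cK15 over control was positive in 32 and negative in 15 of the 47, with a median of 0.03, against -0.01 over all genes tested. Of the 45 that did not pass, 42 had a 95% interval of the difference inside a 1.25-fold change either way, and the 3 whose intervals reached beyond it were Psmb8, Psmb9 and Psme1. These intervals come from a fit that treats libraries as independent, and with correlated replicate series they may be too narrow. They apply to FPKM + 1, so for genes of low FPKM they are no such bound on FPKM itself. In time means, 10 genes were above control at all 6 times (Psma1, Psmc1, Psmc2, Psmc4, Psmc5, Psmc6, Psmd1, Psmd12, Psme1 and Psme3) and 4 were below it at all 6 (Psmb8, Psmb9, Psmb10 and Psmg2). The matching count over all genes tested was not made, so these numbers are not read as a trait of the proteasome genes.

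**Figure D1:**
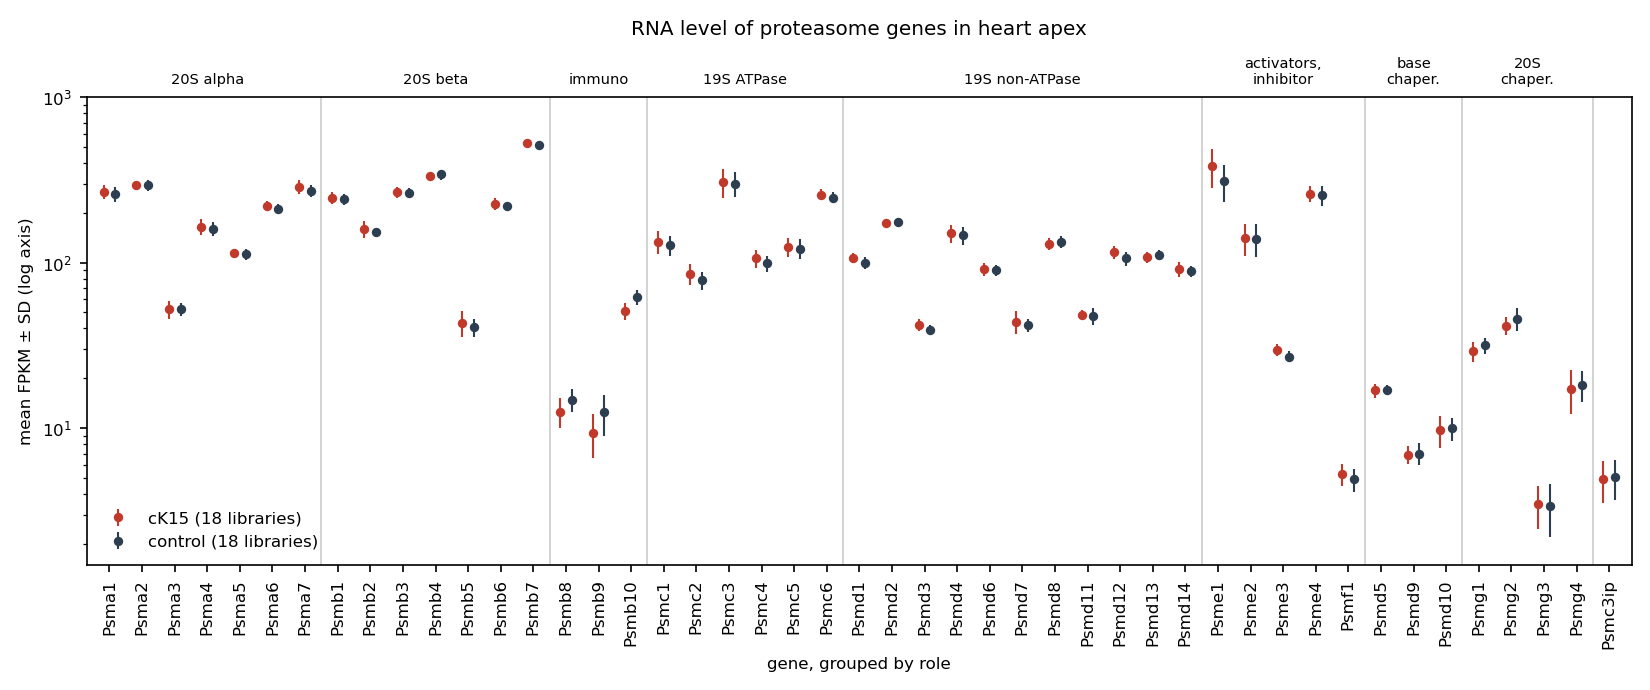
Mean FPKM (log axis) of the 47 tested genes, grouped by role, with bars of 1 SD over the 18 cK15 and the 18 control libraries. Psmb7 stood highest at 525 FPKM in cK15 and 510 FPKM in control hearts, and Psmg3 lowest at 3.46 FPKM in cK15 and 3.40 FPKM in control hearts.

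None of the alpha and standard beta subunits of the core particle was called. The 7 alpha subunits, which form the outer rings and gate the channel, averaged between 52.2 FPKM for Psma3 and 294 FPKM for Psma2 in cK15 hearts, against 52.4 FPKM and 293 FPKM in control hearts. Their log2 fold changes lay between -0.01 and 0.07. Among the 7 standard beta subunits, Psmb7, which carries the trypsin-like site, was the most abundant of all 49 genes at 525 ± 29.4 FPKM in cK15 and 510 ± 33.9 FPKM in control hearts (SD, n = 18 each), and its groups overlapped, with a log2 fold change of 0.04 (SE 0.032) and a limma adjusted p of 0.471. Psmb6, with the caspase-like site, had 227 ± 18.3 FPKM in cK15 and 220 ± 12.6 FPKM in control hearts. Psmb5, with the chymotrypsin-like site, was the least abundant standard beta subunit at 43.4 ± 7.67 FPKM in cK15 and 40.6 ± 5.06 FPKM in control hearts, 0.08 on the log2 scale. The catalytic subunits of the standard core thus differed in RNA level among themselves more than any of them did between genotypes, although each core holds them in equal number.

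Of the tissue-restricted core subunits, Psma8, an alpha subunit of testis, ranged from 0.200 to 1.74 FPKM in cK15 and from 0.200 to 1.55 FPKM in control hearts, and Psmb11, a beta subunit of thymus epithelium, was listed at 0 in all libraries but 1 of cK15, which had 0.0654 FPKM. Both fell under the level for testing. An exact 0 is not read as absence in these tables: Ubb, a ubiquitin gene that cells use widely, was listed at 0 in 12 of 18 cK15 and 10 of 18 control libraries.

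The 3 inducible subunits of the immunoproteasome were the members with the lowest log2 fold changes, and Psmb10 was the one that passed. Psmb10, which replaces Psmb7, ranged from 42.7 FPKM over a median of 49.2 to 63.1 FPKM in cK15 libraries, against 48.7, 61.5 and 77.5 FPKM in control libraries. Of the 18 cK15 libraries, 17 lay below the control median and 6 below the lowest control library, so the groups overlapped in part. The means were 50.9 ± 6.06 FPKM in cK15 and 61.9 ± 6.38 FPKM in control hearts (SD, n = 18 each), a log2 fold change of -0.28 (SE 0.052, limma adjusted p = 0.000389), which is 0.825-fold with a 95% interval of 0.765 to 0.888. Psmb10 passed in all 42 fits that left out a library or a replicate series, between -0.32 and -0.24. With replicate series as a random effect it only just passed (-0.28, limma adjusted p = 0.0496). Within the 12 low-share libraries alone it was -0.23, with an adjusted p of 0.177.

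Psmb9, which replaces Psmb6, ranged from 3.49 over a median of 9.92 to 12.96 FPKM in cK15 libraries, against 5.15, 12.2 and 19.6 FPKM in control libraries. The groups overlapped widely, with 14 of 18 cK15 libraries below the control median. Its mean was 9.36 ± 2.73 FPKM in cK15 and 12.5 ± 3.48 FPKM in control hearts, a log2 fold change of -0.39 (SE 0.131) that missed the threshold at a limma adjusted p of 0.0530. It passed with a term for the low-share libraries (adjusted p = 0.0128), without those libraries (-0.43, adjusted p = 0.0456) and in 7 of the 42 leave-out fits (-0.46 to -0.41), those without cK15 replicate 1 at 12 am or 4 am, cK15 replicate 3 at 4 am, cK15 replicate 4 at 8 pm, control replicate 2 at 8 pm, and control replicate 3 at 8 am or 12 pm. It did not pass with the replicate block (-0.40, adjusted p = 0.130), with replicate series as a random effect (adjusted p = 0.526) or within the 12 low-share libraries alone (-0.30, adjusted p = 0.174). Psmb8, which replaces Psmb5, ranged from 6.24 over 12.3 to 16.8 FPKM in cK15 libraries, against 11.5, 14.9 and 19.3 FPKM in control libraries. Here 15 of 18 cK15 libraries lay below the control median and 4 below the lowest control library, all others inside the control range. The log2 fold change of Psmb8 was -0.24 with an SE of 0.094 (limma adjusted p = 0.101). It passed once libraries of the same replicate number were blocked (-0.33, adjusted p = 0.0486), without cK15 replicate 1 at 4 am (-0.29, adjusted p = 0.0263) and without cK15 replicate 1 at all times (-0.30, adjusted p = 0.0355). With that block the averaged difference rests on replicates 3 and 4, as replicates 1 and 2 each occur in 1 genotype only. Psmb8 did not pass with replicate series as a random effect (adjusted p = 0.599), with the term for the low-share libraries (adjusted p = 0.0632), without those libraries (-0.30, adjusted p = 0.0621) or within them alone (-0.12, adjusted p = 0.631).

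**Figure D2:**
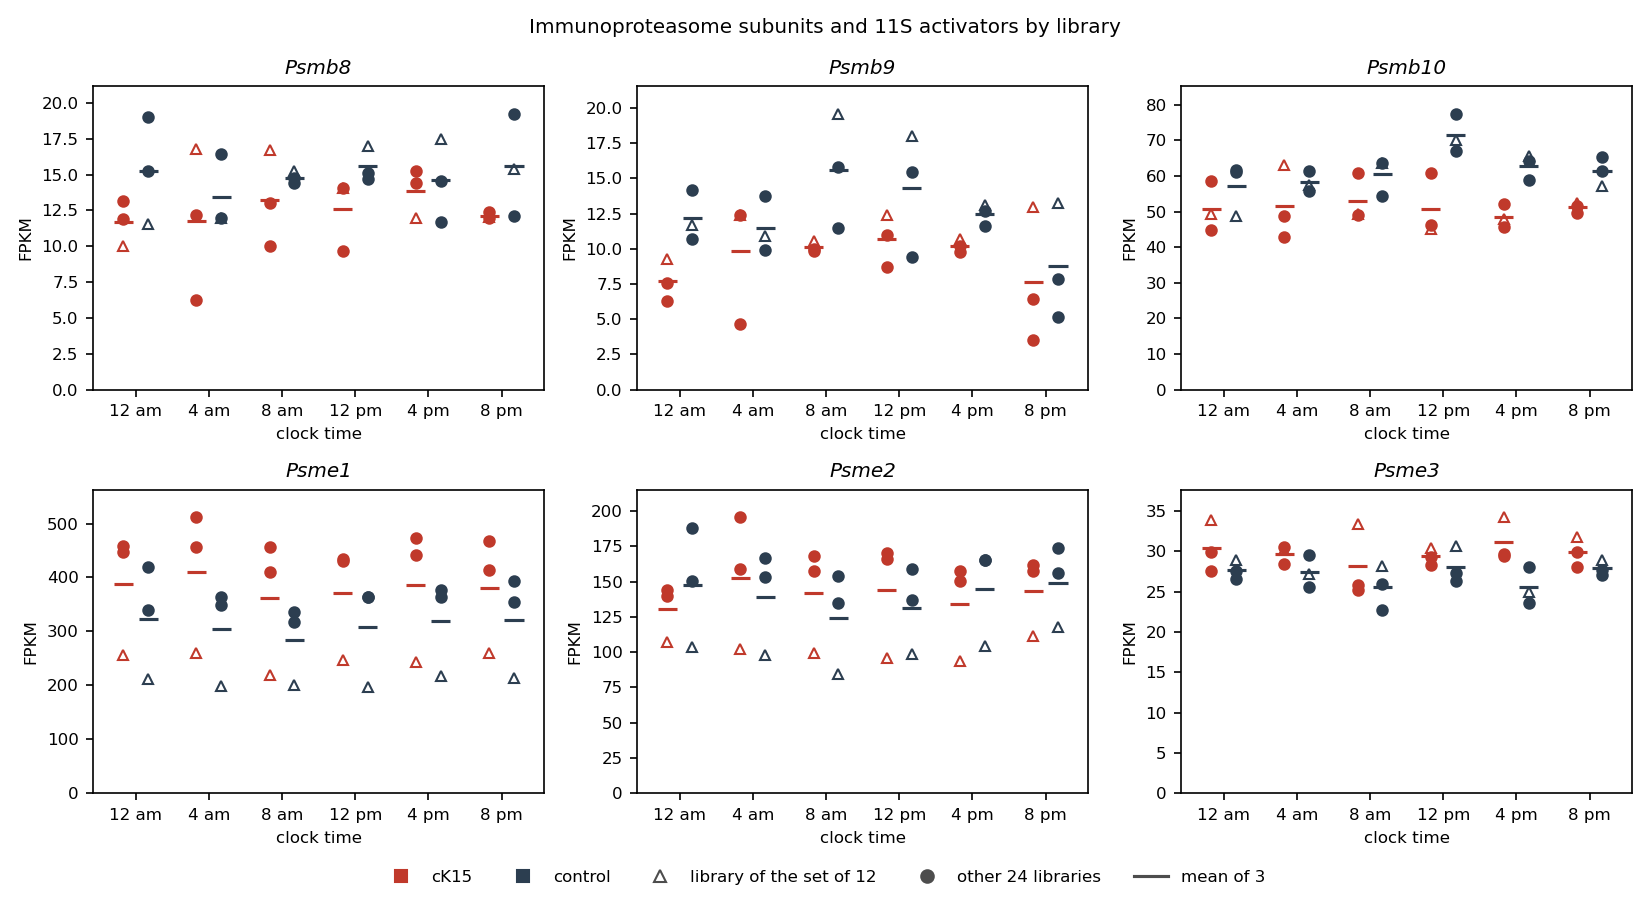
FPKM of Psmb8, Psmb9, Psmb10, Psme1, Psme2 and Psme3 in each library at 6 clock times, cK15 left of control; triangles are the 12 low-share libraries, circles the other 24, and lines the means of 3. Psmb10 in cK15 lay below the control median in 17 of 18 libraries, and Psme1 was lower in the low-share library than in the other 2 in 12 of 12 groups.

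Set against its standard partner, each inducible subunit had a lower median share of the RNA in cK15 hearts. Psmb8 was a median of 22.2% of the FPKM of Psmb8 and Psmb5 together in cK15 libraries, against 27.0% in control libraries. Psmb10 was 8.58% of its pair with Psmb7 in cK15 and 10.7% in control libraries, and Psmb9 was 4.25% of its pair with Psmb6 in cK15 and 5.17% in control libraries. The ranges of the genotypes overlapped in all 3 pairs, and these shares restate the levels above, so no further test was run. Psmb9 overlaps Tap1, the peptide transporter subunit, on the opposite strand, and Psmb8 and Psmb9 lie close together on chromosome 17. The libraries were prepared with a stranded kit, per the labels' protocols, but the sources used here do not say whether strand was used in counting, so reads of Psmb9 and Tap1 may not be told apart. Tap1 itself had a log2 fold change of -0.17 (limma adjusted p = 0.408).

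Genes that act with the immunoproteasome were set beside it. Of 15 tested genes of antigen processing and the interferon response, none was called higher and 4 were called lower in cK15 hearts, where 7.18% of all genes tested were called lower, and the median log2 fold change was -0.19. With the term for the low-share libraries 8 were called lower, where 11.9% of all genes were. The 4 were H2-D1, a classical class I heavy chain (51.7 ± 9.54 FPKM in cK15 and 64.0 ± 9.41 FPKM in control hearts, log2 -0.31, limma adjusted p = 0.00575), the transcription factor Irf1 (-0.19), the GTPase Gbp3 (-0.28) and the interferon-induced Ifit1 (-0.32). Markers of other cells moved with them: 7 of 9 macrophage markers (among them Emr1, Lyz2, Csf1r and Mrc1) and all 6 tested fibroblast markers were called lower in cK15 hearts, with the same counts under the term for the low-share libraries. The summed FPKM of the macrophage list ran from 155 to 247 in cK15 and from 174 to 269 in control libraries, and that of the fibroblast list from 1165 to 1550 in cK15 and from 1373 to 1758 in control libraries. None of 6 tested endothelial markers was called (limma, with 5 at an unadjusted p under 0.05 and all 6 negative). Of 8 cardiomyocyte markers 2, Actc1 and Ckm, were called higher, where 4.06% of all genes tested were. With that term 3 endothelial markers were called lower and 4 cardiomyocyte markers higher, where 8.53% of all genes were called higher. None of the 10 lymphocyte markers reached the level for testing, with sums of 1.39 to 5.26 FPKM in cK15 and 1.26 to 4.42 FPKM in control libraries, and Cd3e, which defines T cells, was listed at 0 in all 18 cK15 and in 15 of 18 control libraries. The part of these cell types in the differences of Psmb8, Psmb9 and Psmb10 was not tested.

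Among the activators, Psme3, whose ring sits mostly in the nucleus and opens the core without ATP, was the called gene. It ranged from 25.2 over a median of 29.8 to 34.3 FPKM in cK15 libraries, against 22.7, 27.2 and 30.6 FPKM in control libraries. The ranges overlapped, with 16 of 18 cK15 libraries above the control median. The means were 29.8 ± 2.46 FPKM in cK15 and 27.0 ± 2.01 FPKM in control hearts, a log2 fold change of 0.13 (SE 0.042, limma adjusted p = 0.0342). This call was lost with the replicate block (0.11, adjusted p = 0.131), where 11.1% of all genes were called, with replicate series as a random effect (adjusted p = 0.344), where 3.26% of all genes were called, without the 12 low-share libraries (0.10, adjusted p = 0.124), in those 12 alone (0.19, adjusted p = 0.0943) and in 16 of the 42 leave-out fits. Of these, 13 left out a single library (0.11 to 0.13, adjusted p between 0.0502 and 0.0634), namely cK15 replicate 1 at 12 am, 8 am, 12 pm and 4 pm, cK15 replicate 4 at 8 pm, control replicate 2 at 4 pm, control replicate 3 at 8 am, 12 pm, 4 pm and 8 pm, and control replicate 4 at 12 am, 4 am and 12 pm. The other 3 left out cK15 replicate 1 (0.08, adjusted p = 0.218), control replicate 3 (0.11, adjusted p = 0.193) or control replicate 4 (0.14, adjusted p = 0.107) at all times.

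Psme1, a subunit of the interferon-inducible PA28 ring, was the second most abundant of the 49 genes and had the largest positive log2 fold change among them. It ranged from 219 over a median of 432 to 512 FPKM in cK15 libraries, against 197, 345 and 419 FPKM in control libraries. Its means of 383 ± 101 FPKM in cK15 and 310 ± 78.5 FPKM in control hearts differed by 0.30 on the log2 scale (SE 0.150), and with that spread the limma adjusted p was 0.235. Over the 42 leave-out fits the estimate lay between 0.10 and 0.53. The ends came from leaving out a replicate at all times, which removes 5 low-share libraries of a single genotype: 0.53 without cK15 replicate 1 (adjusted p = 0.0128) and 0.10 without control replicate 2 (adjusted p = 0.6995), and it was 0.13 without cK15 replicate 3 (adjusted p = 0.716). In the low-share libraries Psme1 was lower than in the other libraries of its group in 12 of 12 groups. Within the 12 it had 219 to 260 FPKM in the 6 cK15 and 197 to 217 FPKM in the 6 control libraries, with no overlap. Within the other 24 it had 411 to 512 FPKM in cK15 and 318 to 419 FPKM in control libraries, with a small overlap. With a term for the low-share libraries the estimate was the same 0.30, its SE was 0.028 and its adjusted p was 1.74e-09. The 24 libraries alone gave 0.32 (adjusted p = 2.68e-05) and the 12 alone 0.26 (adjusted p = 0.00535). Psme1 did not pass with the replicate block (0.33, limma adjusted p = 0.0720) or with replicate series as a random effect (0.30, limma adjusted p = 0.652). Psme1 overlaps Emc9 on the opposite strand, which had a log2 fold change of -0.13 (limma adjusted p = 0.143).

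Psme2, the partner of Psme1 in the same ring, had the smallest log2 fold change of the activators. It had 141 ± 31.1 FPKM in cK15 and 140 ± 31.0 FPKM in control hearts (log2 0.02, SE 0.121), and its sign turned in 15 of the 42 leave-out fits. Like Psme1 it was lower in the low-share libraries in 12 of 12 groups. Psme4, the single-chain activator, had 261 ± 27.5 FPKM in cK15 and 255 ± 35.9 FPKM in control hearts, a level per length near that of the core subunits. Psmf1, which inhibits the core particle, was the least abundant of this group at 5.25 ± 0.778 FPKM in cK15 and 4.91 ± 0.791 FPKM in control hearts. Neither Psme4 (log2 0.04) nor Psmf1 (log2 0.08) was called.

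No gene of the regulatory particle was called. All 6 ATPase subunits, which form the unfolding ring, had positive log2 fold changes, between 0.02 and 0.13. Psmc3 was the most abundant at 306 ± 60.8 FPKM in cK15 and 300 ± 51.9 FPKM in control hearts, and Psmc2 the least at 85.8 ± 12.2 FPKM in cK15 and 78.3 ± 9.77 FPKM in control hearts. Psmc2 had the largest difference of the ring, 0.13 (SE 0.071, limma adjusted p = 0.30). Of the 11 non-ATPase subunits, 8 were positive and 3 negative, between -0.05 and 0.12. Psmd2, a large scaffold of the base, was the most abundant at 174 ± 7.95 FPKM in cK15 and 176 ± 11.4 FPKM in control hearts, and Psmd3, a lid subunit, the least at 42.0 ± 3.43 FPKM in cK15 and 39.3 ± 2.95 FPKM in control hearts. Psmd14, which removes ubiquitin from the substrate, and Psmd4, a ubiquitin receptor, differed by 0.05 and 0.03. Psmd13 overlaps Sirt3, a mitochondrial deacetylase that was called higher in cK15 hearts (0.25, limma adjusted p = 0.000239), while Psmd13 itself had -0.05.

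The chaperones that help to assemble the particle were mostly less abundant than the subunits, and none was called. The base chaperones Psmd5, Psmd9 and Psmd10 ran from 6.93 FPKM for Psmd9 to 16.9 FPKM for Psmd5 in cK15 hearts, against 7.02 FPKM and 17.03 FPKM in control hearts, and their log2 fold changes lay between -0.04 and -0.01. Of the core chaperones, Psmg2 was the most abundant at 41.6 ± 5.09 FPKM in cK15 and 45.8 ± 7.40 FPKM in control hearts (log2 -0.13, SE 0.070, limma adjusted p = 0.292). Psmg1, its partner, had -0.11, Psmg4 -0.10 and Psmg3, the least abundant at 3.46 ± 1.00 FPKM in cK15 and 3.40 ± 1.21 FPKM in control hearts, 0.04. The log2 difference of Psmg4 was -0.33 within the low-share libraries and 0.02 within the others. Psmc3ip, which the symbol rule takes in, is a partner of meiotic recombination and no proteasome subunit, and it had 4.92 FPKM in cK15 and 5.04 FPKM in control hearts.

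**Figure D3:**
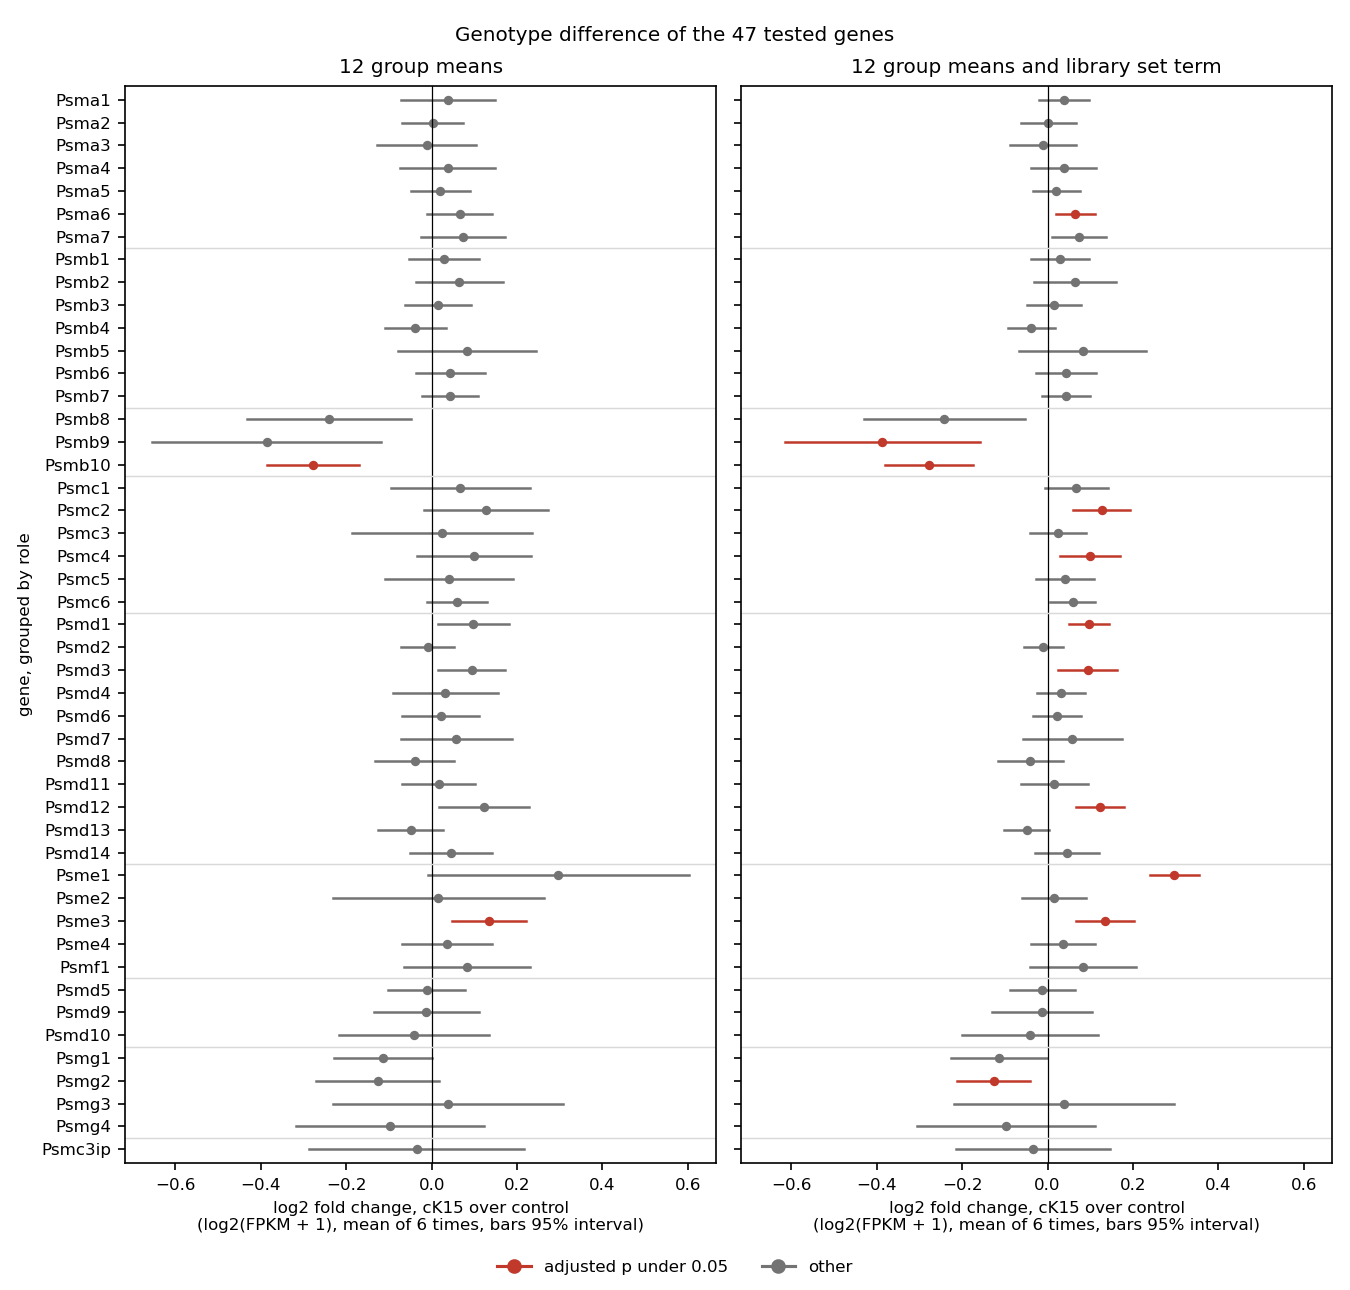
Log2 fold change of cK15 over control, averaged over the 6 times, for the 47 tested genes by role, with 95% intervals, from the fit without (left) and with (right) a term for the 12 low-share libraries; red marks an adjusted p under 0.05. The points are the same in both panels, and 2 genes pass on the left and 11 on the right.

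With the term for the low-share libraries, 11 of the 47 genes were called, or 23.4%, against 20.5% of all genes tested. The 8 higher in cK15 hearts were Psma6, Psmc2, Psmc4, Psmd1, Psmd3, Psmd12, Psme1 and Psme3, which is 17.02%, against 8.53% of all genes tested. The 3 lower were Psmb9, Psmb10 and Psmg2, which is 6.38%, against 11.9%. Except for Psme1, Psmb9 and Psmb10, these differences were small, between 0.07 for Psma6 (adjusted p = 0.0329) and 0.13 for Psme3 (adjusted p = 0.00345) upward, with Psmg2 at -0.13 (adjusted p = 0.0310). The 24 libraries outside the set called 4 (Psmb9, Psmb10, Psmc2 and Psme1), against 11.1% of all genes, and the 12 alone called 2 (Psmd12 and Psme1), against 5.43% of all.

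**Figure D4:**
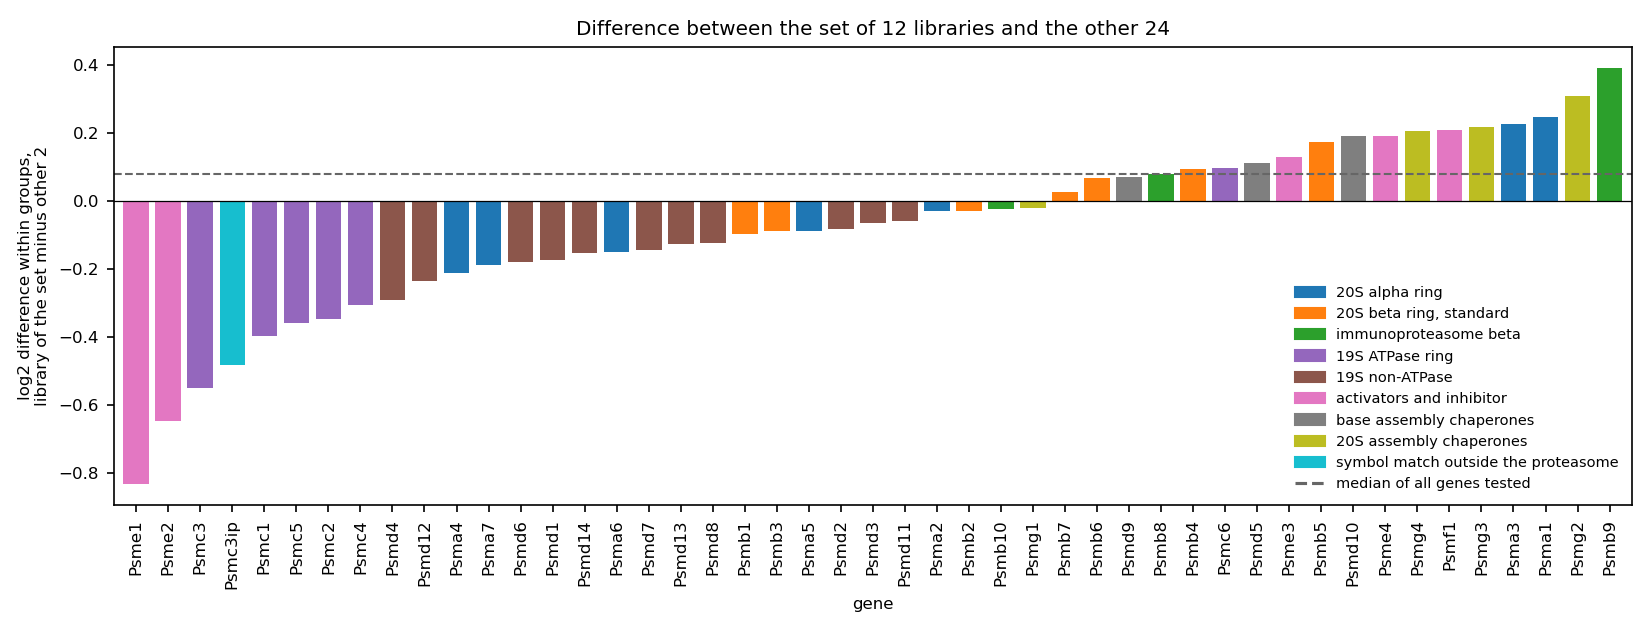
Log2 difference of the low-share library from the other 2 libraries of its group, averaged over the 12 groups, for each tested gene, coloured by role; the dashed line is the median of all genes tested, 0.08. Psme1 at -0.83 and Psme2 at -0.65 lay lowest and Psmb9 at 0.39 highest.

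Several proteasome genes differed between the low-share and the other libraries, without a test. The median log2 difference of these libraries from the others of their group was -0.07 over the 47 genes, against 0.08 over all genes tested. Psme1 (-0.83), Psme2 (-0.65), Psmc3 (-0.55), Psmc1 (-0.40), Psmc5 (-0.36), Psmc2 (-0.35) and Psmc4 (-0.31) were lower in 12 of 12 groups. Of the ATPase ring, Psmc6 alone lay the other way, at 0.10. Psmb9 (0.39) and Psmg2 (0.31) were the highest. The labels name no batch that matches these libraries.

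No proteasome gene passed at a single time. Among the 47 genes 0 were called at each of the 6 times (limma), where from 12 am on 1.21%, 1.12%, 1.06%, 0.745%, 1.3% and 1.12% of all genes were called. At an unadjusted p under 0.05 there were 0, 0, 1, 1, 2 and 1 of the 47 in that order. Over the 10599 genes tested there were 767, 831, 792, 615, 893 and 813. The nearest was Psmb10 at 12 pm, with 45.2, 60.9 and 46.1 FPKM in cK15 libraries, against 70.1, 66.9 and 77.5 FPKM in control libraries. Those groups did not overlap, and the log2 difference was -0.50 (limma adjusted p = 0.0688). It passed without cK15 replicate 3 at 12 pm (-0.63, adjusted p = 0.0135), and without cK15 replicate 1 or 4 at 4 am, which leave the value at -0.50 (adjusted p = 0.0322 and 0.0475). With the term for the low-share libraries there were 7 such calls, Psme1 at each of the 6 times and Psmb10 at 12 pm (adjusted p = 0.0332), where 2.41%, 2.15%, 2.04%, 1.42%, 2.98% and 2.59% of all genes were called in the same order. For Psme1 the log2 fold changes at single times lay between 0.25 at 8 pm and 0.42 at 4 am. The genotype difference was not shown to vary with time for any of the 47 (0 calls in limma's interaction test, against 0.00943% of all genes). At an unadjusted p under 0.05 that test had 0 of the 47, against 205 of the 10599 genes tested.

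No proteasome gene passed a test for a daily rhythm. A 24 h curve fitted to each genotype's own 18 libraries passed for 0 of the 47 in cK15 hearts (limma), against 1.08% of all genes. It passed for 0 of the 47 in control hearts, against 2.8% of all genes. At an unadjusted p under 0.05 there were 2 of the 47 in cK15 hearts (Psmc6 and Psmd9), against 949 of the 10599 genes tested. In control hearts there were 5 (Psmb7, Psmb9, Psmb10, Psmd2 and Psme4), against 1486 of the 10599. The smallest adjusted p was 0.466 in cK15 and 0.235 in control hearts. The median amplitude, from the curve's mean to its peak on the log2 scale, was 0.05 in cK15 and 0.06 in control hearts, against 0.08 and 0.09 over all genes tested, and the largest was that of Psmb9, 0.28 in cK15 and 0.30 in control hearts. No rhythm difference between genotypes was called in limma, nor any 12 h component in either genotype, among the 47 or among all genes (0%). At an unadjusted p under 0.05 there were 0 of the 47 in each of these tests. Over the 10599 genes tested there were 291 for the rhythm difference, 215 for the 12 h component in cK15 and 337 in control hearts. With the term for the low-share libraries, Psmd1 and Psmd4 passed the 24 h test in control hearts (adjusted p = 0.0450 and 0.00820), against 6.89% of all genes.

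**Figure D5:**
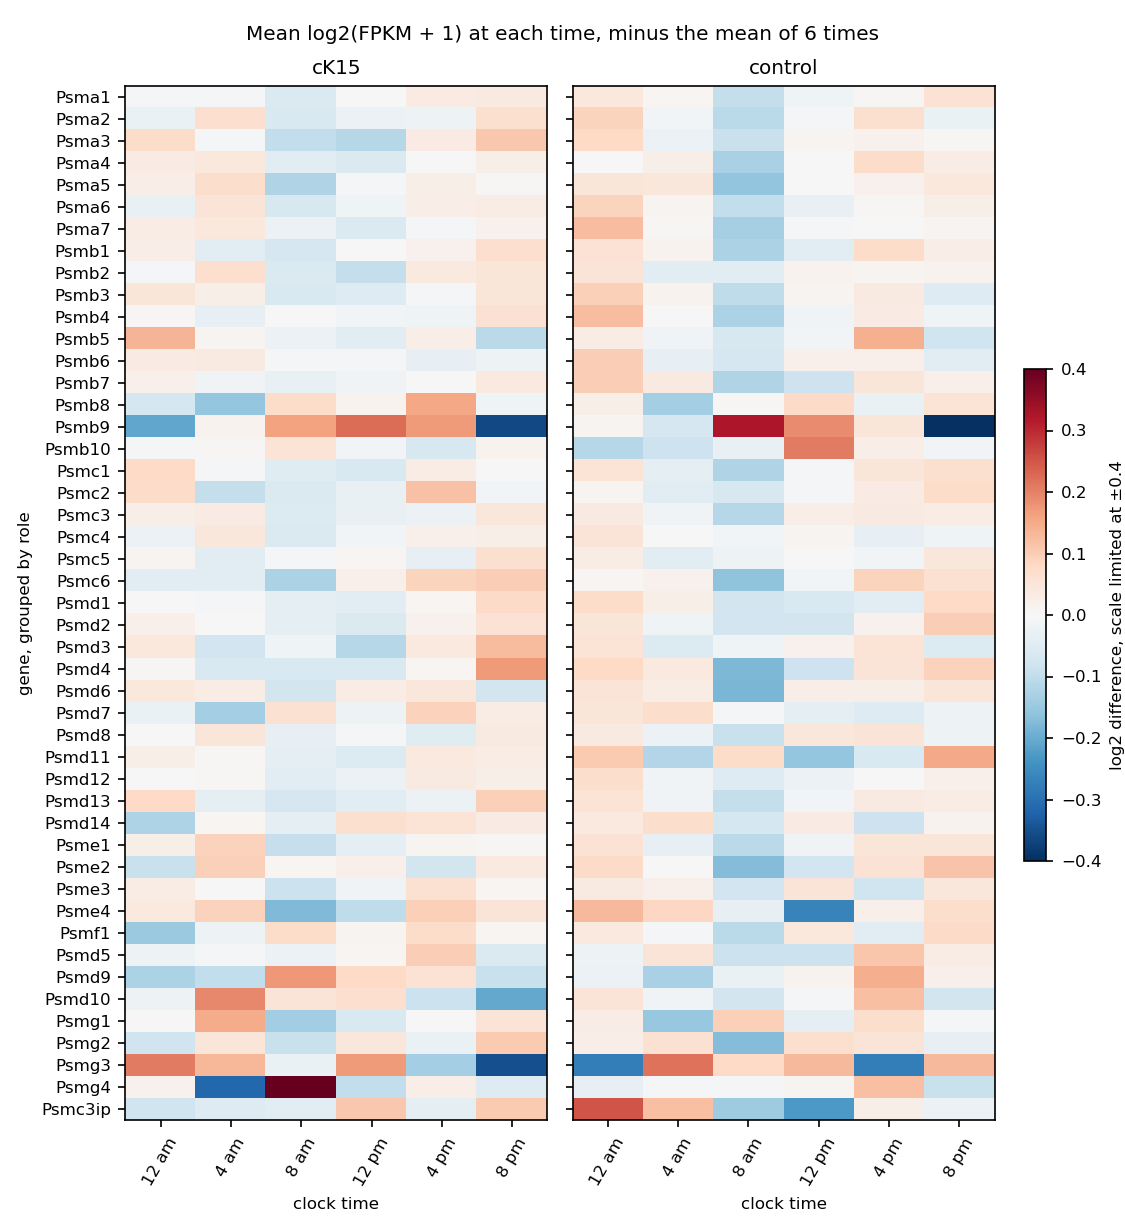
Mean log2(FPKM + 1) of 3 libraries at each clock time minus the mean of the 6 times, for the 47 tested genes by role, in cK15 (left) and control (right) hearts; the colour scale is limited at ±0.4. Most of the control column at 8 am lies below the mean.

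As a description without a test, 8 am held the lowest time mean of 19 of the 47 genes in cK15 hearts, or 40.4%, against 21.7% of all genes tested, and of 29 of the 47 in control hearts, or 61.7%, against 22.5% of all genes. The highest time mean was most often at 8 pm in cK15 hearts (14 of the 47, or 29.8%, against 19.95% of all genes) and at 12 am in control hearts (18 of the 47, or 38.3%, against 23.4%). The deviations were small: at 8 am the median of the 47 was -0.04 in cK15 and -0.09 in control hearts on the log2 scale, against -0.01 in both over all genes tested. The genes at a time share the same 3 libraries, so they are not independent of each other. The summed FPKM of control replicates 2, 3 and 4 also differed, with 573432, 602359 and 596688 at 8 am and 578272, 684912 and 662812 at 12 am. The part of these sums in the time means was not tested.

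Further genes of the pathway were read from lists. Of 11 tested further subunits and partners, among them the ubiquitin receptor Adrm1, the deubiquitinase Usp14 and the core maturation factor Pomp, 0 were called (limma; 0 at an unadjusted p under 0.05), with a median log2 fold change of 0.06. Usp14 had 42.5 ± 5.87 FPKM in cK15 and 39.6 ± 4.61 FPKM in control hearts. With the term for the low-share libraries 2 of the 11 passed, Usp14 higher (0.10, adjusted p = 0.0375) and Pomp lower (-0.08, adjusted p = 0.0362), where 20.5% of all genes did. Of 10 tested regulators of proteasome genes, 1 was called, Xbp1, a factor of the unfolded protein response, which was lower at 14.1 ± 2.06 FPKM in cK15 and 16.6 ± 2.63 FPKM in control hearts (log2 -0.22, limma adjusted p = 0.0119). Nfe2l1, the factor that raises proteasome genes when proteolysis is blocked, had 18.4 FPKM in both genotypes, with a log2 fold change of 0.00. Of 12 tested genes for ubiquitin, its activating enzymes and shuttles, 1 was called, Ufd1l, a partner of the segregase Vcp, at 44.5 ± 2.41 FPKM in cK15 and 41.2 ± 3.41 FPKM in control hearts (log2 0.11, limma adjusted p = 0.0318). Both counts, 1 of 10 and 1 of 12, are near the 11.2% called over all genes tested. With the term for the low-share libraries they were 1 and 3, the 3 being Ufd1l, Rad23b and Nploc4, all higher.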

How the data were processed

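RNA was measured in 36 heart apex libraries, 3 for each of 6 times in cK15 and control mice. The authors deposited FPKM per gene symbol and library in a table for each genotype, and the tables list the same entries. The submitters' processing notes name the tools GSNAP and HTSeq and the build mm10; the sources used here do not give versions, annotation or strand setting. Ribosomal RNA was depleted, per the labels' protocols, so unspliced RNA can add to the values.

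Genotypes and times were compared on log2(FPKM + 1), which understates changes of low genes, with limma 3.58.1 (R 4.3.3), over the 10599 genes with a mean of at least 1 FPKM. The 12 group means shared 1 estimate of spread, following expression and robust to outlying genes. The genotype difference was averaged over the times and taken at each, its change over time was an F test, and rhythms were cosine and sine terms of 24 h, with a 12 h component beside them, in each genotype's own 18 libraries. Adjusted p-values (Benjamini-Hochberg) cover all genes tested, with a threshold of 0.05. The fits were run on simulated data with independent libraries, which hold neither correlated replicate series nor low-share libraries and so do not test their effect. Low-share libraries were those in which the 10 most abundant genes took under 20% of the summed FPKM.

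The proteasome genes, the lists, the markers and the rule for named genes were chosen with earlier results of these data known. Named are called members, the inducible subunits and their partners, all activators, the most and least abundant of each role, members under the level for testing and called genes of each list; members called under an alternative, Usp14, Nfe2l1, Ubb and overlapping genes were added after their values were seen. Psme2b and Paaf1 were not analysed here. Of the 49 genes, 12 overlap another gene of the tables.

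Replicate numbers 3 and 4 occur in both genotypes. The deviations of libraries with the same number and time from their group means correlated across genes in all 12 pairs (r between 0.157 and 0.508). With the numbers crossed r lay between -0.275 and 0.153. The highest pair was number 4 at 8 pm, where both are low-share libraries. Libraries of the same genotype and number also correlated between times, over 0.1 in 70 of 90 pairs (-0.322 to 0.554), with a consensus correlation of 0.218 within series. The main fit holds no replicate block, so its p-values treat these libraries as independent. The number was taken to pair libraries in the fit with a fixed replicate block, and the labels do not say what it marks. Number 1 occurs in cK15 only and number 2 in control only. With that block the averaged genotype difference therefore rests on numbers 3 and 4. Alternatives were another pseudocount (0.1), no filter, median-ratio and quantile scaling, a replicate block (fixed, or random by series), a term for the low-share libraries, each kind of library alone (the 12 alone was added after seeing the data), and leaving out each library and each replicate series.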

Additional observations from a re-analysis of the deposited data

How the results depend on the processing

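The 2 calls of the averaged genotype difference became 1 with replicate series as a random block (Psmb10, limma adjusted p = 0.0496), where 3.26% of all genes were called. They became 11 with the term for the low-share libraries and 4 in the 24 other libraries. Over the 42 leave-out fits the count lay between 1 and 4, and it moved by over 1.5 times without cK15 replicate 1 at 4 am, 8 am, 12 pm or 4 pm, control replicate 2 at 4 pm, control replicate 3 at 4 pm or 8 pm, control replicate 4 at 12 am, 4 am or 12 pm, and without cK15 series 1 or control series 3 or 4 at all times. The other 5 alternatives and the 12 libraries alone gave 2 calls each, but not always of the same genes: with the fixed replicate block Psmb8 stood in place of Psme3, and in the 12 libraries the calls were Psmd12 and Psme1 in place of Psmb10 and Psme3. The block changed no other call among the 47 genes. The 0 calls at single times became 7 with the low-share term and 0 to 1 over the leave-out fits, where the 1 was Psmb10 at 12 pm. In the 24 libraries they became 2, both higher in cK15 hearts, 1 at 4 am and 1 at 8 am. Of all genes, 0.962% were called at 4 am and 1.26% at 8 am in those libraries. The 0 rhythmic genes of control hearts became 2 with the low-share term. The interaction, the rhythm in cK15, the rhythm difference and both 12 h tests stayed at 0 in every alternative run.

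Leaving out libraries turned the sign of 4 named genes that were not called: Psmb5 (-0.017 to 0.21), Psmc4 (-0.0065 to 0.18), Psme2 (-0.15 to 0.19) and Psme4 (-0.0077 to 0.087). Psmb5 also passed without cK15 series 4 at all times, and Psme1 (0.10 to 0.53 over these fits) and Psmd1 without cK15 series 1. The cause was not tested. No count test was possible, as the absolute depth is unknown.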
